A study of Mus musculus with 16 samples.

Results

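Phagocytes read surface signals before they engulf a cell or a fragment, and 10 genes of this decision were followed in CD11b+ brain cells: Sirpa, Cd47, Cd33, Cd22, Havcr2, Mertk, Gas6, Mfge8, Cd36, and Msr1. The genes were chosen by name for their known roles, with earlier results of these data known. All 10 were found among the 24421 rows of the deposited count table, and all 10 passed the filter on low counts, as did 14565 rows in all. RNA came from female C57BL/6J mice that arrived at 3 weeks of age and spent 1 month on a diet. CON mice (4 libraries) ate standard chow with 20% of energy as protein and 15% as fat, and MAL mice (5 libraries) ate an isocaloric diet with 7% protein and 5% fat. MAL-BG mice (7 libraries) ate the MAL diet and also received 3 gavages of E. coli and Bacteroidales species over 5 days, starting 2 weeks into the diet. CON and MAL mice received PBS by gavage over the same days. There was no group with bacteria on the standard diet, so MAL-BG mice differ from MAL mice by the bacteria and from CON mice by both diet and bacteria. Cells were dissociated from brain and enriched on beads for CD11b, an integrin chain that microglia and other myeloid cells carry. The labels name cortical tissue, whereas the methods name whole cerebra. The labels do not say which mice shared a cage, so p values measure the spread between libraries.

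Engulfment is set by the balance of inhibitory and activating receptors. SIRPα on the phagocyte binds CD47 on other cells and signals through tyrosine phosphatases to hold engulfment back. The Siglec CD22 does the same on binding sialic acid, which CD33, another Siglec, also binds. Phosphatidylserine on dying cells or synaptic material is the main activating signal: GAS6 and MFG-E8 bridge it to the receptor kinase MERTK and to integrins, TIM-3 (Havcr2) binds it directly, and the scavenger receptors CD36 and MSR1 take up oxidized lipids, lipoproteins, and other cargo. Microglia, the resident macrophages of the brain, use these molecules to clear apoptotic cells and to prune synapses.

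Library totals ranged from 10312703 to 13461574 counts in CON, from 10864121 to 12819982 in MAL, and from 14191791 to 18705202 in MAL-BG, so the smallest MAL-BG library exceeded the largest of the other groups. Levels are given as CPM, a gene's share of the counts of its library on a fixed scale, relative to library sizes scaled by the TMM method. A gene was called when the edgeR quasi-likelihood test gave an adjusted p under 0.05 over all tested genes and an absolute log2 fold change above 0.58. By that rule 33.1% of tested genes were called in MAL-BG versus CON (1659 higher and 3161 lower), 30.4% in MAL-BG versus MAL (1479 higher and 2944 lower), and 0% in MAL versus CON. This split moved with the scaling: 3298 genes were higher and 2403 lower against CON with scaling by the mean log2 CPM, and 1047 were higher and 3619 lower with library totals alone. The microglia markers Tmem119 and P2ry12 were high in all groups, at no less than 951 CPM for Tmem119 and 910 CPM for P2ry12. The 18 microglia markers summed to 55790 to 77900 CPM in MAL-BG, 27040 to 43390 in CON, and 26950 to 45760 in MAL, with none at 0, and 13 of 18 were called higher against CON. Of 13 neutrophil markers 12 were called higher against CON, with sums of 607 to 15030 CPM in MAL-BG (highest in replicate 5) and 490 to 1230 in CON. All 10 choroid plexus markers were called lower, with sums of 1477 to 13220 CPM in MAL-BG and 10780 to 41520 in CON. Of the other marker lists, those with genes called higher against CON were T and NK cells (4 of 4 tested), endothelium (3 of 9, with 1 lower), oligodendrocytes (3 of 8), and B cells (1 of 7), and those with genes called lower were neurons (7 of 8), astrocytes (5 of 9), ependyma (3 of 4), monocytes (3 of 9), dendritic cells (2 of 4), mural cells (2 of 10), and border macrophages (1 of 8), with 0 of 6 for fibroblasts. Of 11 early response genes, which respond quickly to stress such as cell isolation, 1 was called higher and 5 lower. In these bulk libraries, fewer cells of a type and less RNA per cell cannot be told apart.

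Of the 10 genes, 1 was called higher in MAL-BG than CON (Sirpa) and 0 were called lower by the edgeR test, beside 11.4% of all tested genes called higher and 21.7% called lower. By unadjusted p, 7 of the 10 were under 0.05 against CON and 7 against MAL, beside 52.7% and 52.2% of all genes. By adjusted p alone, 4 of 10 passed (Sirpa, Cd47, and Havcr2 higher and Cd36 lower), beside 45.1% of all genes (19.8% higher and 25.2% lower). Against MAL, Sirpa was again called higher, and Cd36 and Msr1 were called lower, beside 10.2% of all genes called higher and 20.2% called lower. By adjusted p alone 4 of 10 passed against MAL as well (Sirpa and Cd47 higher, Cd36 and Msr1 lower), beside 44.3% of all genes (20.2% higher and 24.1% lower), so the share of the set was near the background. The median log2 fold change of the 10 genes was -0.09 against CON and -0.10 against MAL, beside -0.04 and -0.03 over all genes. Both comparisons use the same 7 MAL-BG libraries and are not independent.

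**Figure D1:**
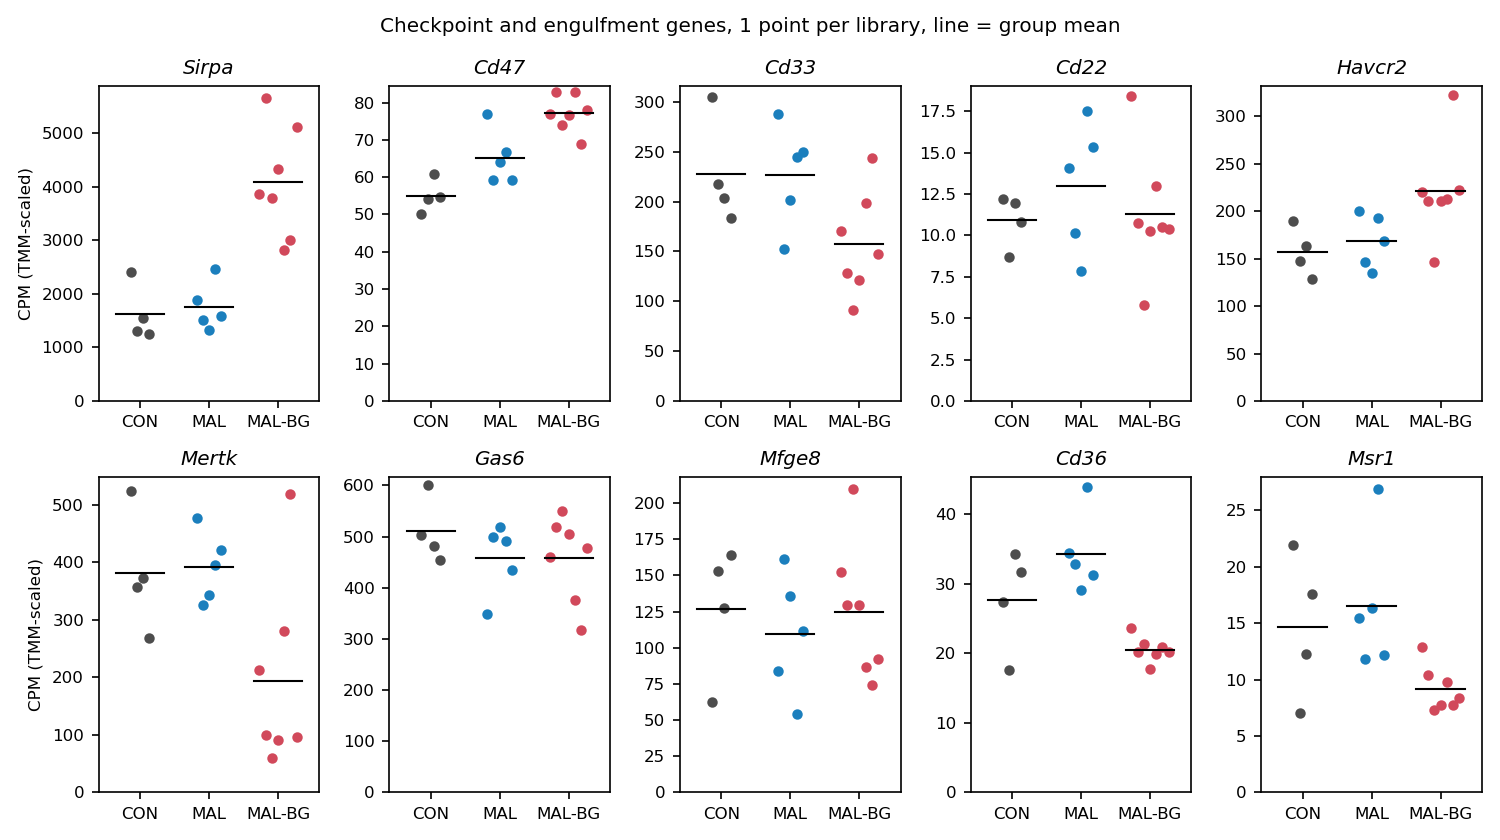
CPM of the 10 genes in each library of CON (4), MAL (5), and MAL-BG (7), with a line at the group mean and linear axes that start at 0. The 7 MAL-BG libraries of Sirpa lie between 2817 and 5666 CPM, above the other 9, whereas Mertk in MAL-BG spreads from 60.5 to 519 CPM.

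Levels between genes were compared as CPM per kb of exon sequence. In CON, Sirpa stood highest at 332 ± 108 CPM per kb (SD, n = 4), followed by Gas6 at 200 ± 25.1, Mertk at 87.8 ± 24.5, and Havcr2 at 57.8 ± 9.52. Cd33 (29.3 ± 6.91) and Mfge8 (27.0 ± 9.69) came next and overlapped. Cd47 (8.76 ± 0.704) and Cd36 (7.73 ± 2.05) overlapped likewise, as did Msr1 (2.32 ± 1.01) and Cd22 (2.17 ± 0.316). The neighbors Mertk and Havcr2 also shared part of their range, 61.9 to 121 against 47.2 to 69.8 CPM per kb. In MAL-BG, Havcr2 (81.2 ± 19 CPM per kb) stood above Mertk (44.8 ± 37.7), and the MAL-BG libraries of the pair overlapped.

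Sirpa, the receptor for CD47, was the gene of the set with the largest rise. Its level was 2403, 1313, 1544, and 1260 CPM in the 4 CON libraries and 1892, 1511, 1329, 2458, and 1596 CPM in the 5 MAL libraries. In MAL-BG it ranged from 2817 to 5666 CPM with a median of 3864. All 7 MAL-BG libraries were above all 9 others, a pattern shared by 6.17% of tested genes. The rise was 2.51-fold against CON (log2 fold change 1.33 ± 0.243 SE, adjusted p = 4.8e-04) and 2.33-fold against MAL (1.22 ± 0.223, adjusted p = 4.9e-04). Among CON and MAL, replicate 1 of CON and replicate 4 of MAL were the highest. Sirpa lies on chromosome 2 from 129591042 to 129632228 (GRCm38, plus strand), and none of its 42-base exon windows is shared with another gene. The same MAL-BG libraries carried more microglia marker RNA, and with libraries scaled to those markers the log2 fold change against CON was 0.535 (adjusted p = 0.0141).

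Cd47 codes for the ligand that marks cells as self. The CON libraries held 50.1, 54.2, 60.8, and 54.7 CPM and the MAL libraries 76.9, 59.2, 64.2, 66.7, and 59.3 CPM. MAL-BG libraries ranged from 68.9 to 82.8 CPM with a median of 76.9. All of them were above CON, a separation that 21% of tested genes show in either direction, and they overlapped with MAL through replicate 1 of MAL. Cd47 passed by adjusted p but not by size, with log2 fold changes of 0.49 ± 0.0943 against CON (adjusted p = 6.96e-04) and 0.24 ± 0.087 against MAL (adjusted p = 0.0322). Over 13 other settings the value against CON ran from -0.37, relative to microglia markers, to 0.77, which is above the fold threshold. Cd47 lies on chromosome 16 from 49851328 to 49912503 (plus strand).

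Taken within each library, the ratio of Sirpa to Cd47 counts does not depend on scaling between libraries. The log2 ratio was 5.58, 4.598, 4.67, and 4.52 in CON and 4.62, 4.67, 4.37, 5.20, and 4.75 in MAL, and ranged from 5.09 to 6.10 in MAL-BG with a mean of 5.69 ± 0.348 (SD, n = 7). Since gene length is not taken out, it serves to compare groups and not the levels of the 2 genes. The ratio was higher in MAL-BG than in CON by 0.85 (two-sided exact permutation test, p = 0.00909, adjusted p = 0.0273 over 6 comparisons) and than in MAL by 0.97 (exact permutation p = 0.00379, adjusted p = 0.0227). MAL and CON differed by -0.12 (exact permutation p = 0.651). Replicate 1 of CON lay within the MAL-BG range, and replicate 4 of MAL lay above the lowest MAL-BG library. These libraries also had the highest microglia marker sums of their groups, 43390 and 45760 CPM, beside 55790 to 77900 CPM in MAL-BG. Within MAL-BG, replicates 1 to 7 had sums of 77900, 70820, 55790, 67760, 57550, 65630, and 73160 CPM. Their log2 ratios, in the same order, were 5.65, 6.10, 5.68, 5.82, 5.09, 5.45, and 6.04. The part of microglial content in the ratio was not tested. The call against CON was lost with a difference of medians (1.05, exact permutation adjusted p = 0.0727) and when any of 8 libraries was left out (CON replicates 2, 3, and 4 and MAL-BG replicates 1, 2, 3, 4, and 7), where the difference was between 0.74 and 0.85 and the adjusted p between 0.0714 and 0.0857. Against MAL the median gave 1.005 with an adjusted p of 0.0758, and all 16 leave-one-out values had an adjusted p of at most 0.039.

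**Figure D2:**
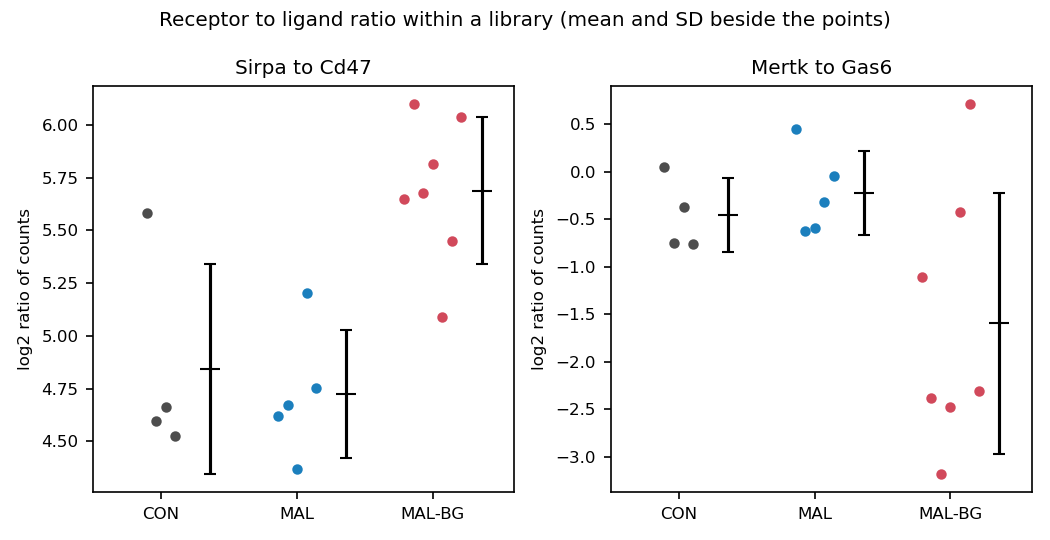
Log2 ratio of counts of Sirpa to Cd47 and of Mertk to Gas6 in each library, with the group mean and SD drawn beside the points. Sirpa to Cd47 averages 5.69 in MAL-BG against 4.84 in CON and 4.72 in MAL, and Mertk to Gas6 runs from -3.18 to 0.71 in MAL-BG.

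Cd33, which codes for a sialic acid-binding receptor, held 305, 218, 204, and 184 CPM in CON and 287.5, 153, 202, 245, and 249 CPM in MAL. MAL-BG replicates 1 to 7 held 171, 128, 91.7, 121.5, 199, 244, and 147 CPM. Replicates 2, 3, 4, and 7 were below all 9 other libraries, and the remaining 3 overlapped with them. The log2 fold change was -0.53 ± 0.229 against CON (adjusted p = 0.0674) and -0.53 ± 0.215 against MAL (adjusted p = 0.0548), so neither passed. One library each decided this: without MAL-BG replicate 6 the values were -0.67 against CON (adjusted p = 0.0159) and -0.67 against MAL (adjusted p = 0.012), and without MAL-BG replicate 5 they were -0.61 (adjusted p = 0.0498) and -0.60 (adjusted p = 0.0414). Without MAL replicate 2, Cd33 was at -0.65 against MAL (adjusted p = 0.0323). Neutrophils also carry sialic acid-binding receptors, and replicate 5 had the highest neutrophil marker sum (15030 CPM), whose part in the Cd33 value was not tested. Cd33 lies on chromosome 7 from 43527399 to 43537424 (minus strand).

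Cd22, a Siglec best known from B cells and also carried by microglia, was low, with 12.2, 8.72, 11.98, and 10.8 CPM in CON and 14.05, 10.1, 7.83, 17.5, and 15.4 CPM in MAL. MAL-BG ranged from 5.79 to 18.4 CPM with a median of 10.5, and the 3 groups overlapped. The log2 fold change was 0.05 ± 0.258 against CON (adjusted p = 0.897) and -0.20 ± 0.239 against MAL (adjusted p = 0.517). Of 7 tested B cell markers 1 was called higher against CON (Cd79b, 36.1 against 12.7 CPM) and 0 lower, with sums of 30.4 to 54.1 CPM in MAL-BG and 17.7 to 26.9 in CON, and their part in the Cd22 value was not tested. The B cell marker Cd79a was at 1.31 to 4.54 CPM in MAL-BG and 1.38 to 3.47 in CON. Of the 42-base windows of Cd22, 8.98% also occur in another gene, mostly in Gm29439, which lies antisense to it over 479 bases, so the value is less certain than the others. Cd22 lies on chromosome 7 from 30865404 to 30880342 (minus strand).

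Havcr2 codes for TIM-3, a receptor for phosphatidylserine that also acts as a checkpoint. It held 190, 147, 163, and 128.5 CPM in CON and 200, 146, 135, 193, and 168.5 CPM in MAL. In MAL-BG replicate 3 had 147 CPM, the median was 213, and replicate 6 had 322 CPM. Of the 7 MAL-BG libraries, 6 were above all 9 others. Havcr2 passed by adjusted p alone against CON, at a log2 fold change of 0.49 ± 0.174 (adjusted p = 0.0296), and did not pass against MAL (0.39 ± 0.161, adjusted p = 0.0582). Without CON replicate 1 it was called, at 0.582 (adjusted p = 0.0215), and relative to microglia markers it was at -0.36. Over 13 other settings Havcr2 reached up to 0.74 against CON and 0.614 against MAL, which is above the fold threshold. Havcr2 lies on chromosome 11 from 46454931 to 46481255 (plus strand).

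Mertk, the receptor kinase that takes up cargo bridged by GAS6, varied most among MAL-BG libraries. It held 524, 358, 373, and 269 CPM in CON and 477, 325.5, 343, 396, and 422 CPM in MAL. MAL-BG replicates 1 to 7 held 214, 99.5, 60.5, 90.6, 280.5, 519, and 96.7 CPM. Of these, 5 were below all 9 other libraries, whereas replicate 6 was close to the highest CON library. The highest MAL-BG library had 8.58 times the level of the lowest, and the SD of log2 CPM was 1.10 in MAL-BG, 0.40 in CON, and 0.22 in MAL. The log2 fold change was -0.97 ± 0.437 against CON (adjusted p = 0.0799) and -1.01 ± 0.413 against MAL (adjusted p = 0.0553), so neither passed. Without MAL-BG replicate 6, Mertk was called lower in both, at -1.44 against CON (adjusted p = 0.00291) and -1.49 against MAL (adjusted p = 0.00178), and without MAL-BG replicate 5 it was called against MAL (-1.12, adjusted p = 0.0486). The call against MAL was also made with 5 other settings, among them DESeq2 (-0.99, adjusted p = 0.033) and library totals only (-1.14, adjusted p = 0.0363). Mertk lies on chromosome 2 from 128698915 to 128803162 (plus strand).

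The 4 MAL-BG libraries with the least Mertk (replicates 2, 3, 4, and 7) were also the 4 with the least Cd33. Library totals of these 4 were 14819828, 14191791, 16863746, and 14869354 counts, and 18229442, 18705202, and 17323278 in replicates 1, 5, and 6, so the 4 were also the 4 smallest MAL-BG libraries. CPM values are scaled for library size. After every library was thinned to the smallest total of the 16, Mertk was at a log2 fold change of -0.99 (adjusted p = 0.0778) against CON and -1.01 (adjusted p = 0.0575) against MAL. Thinning keeps each gene's expected share of its library, and these values compare groups, so they do not address the pattern within MAL-BG. Sample titles place 4 MAL-BG mice under a letter A and 3 under a letter B (1 and 3 in CON, 4 and 1 in MAL), but the columns of the count table carry no letter, so no library could be assigned to one.

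**Figure D3:**
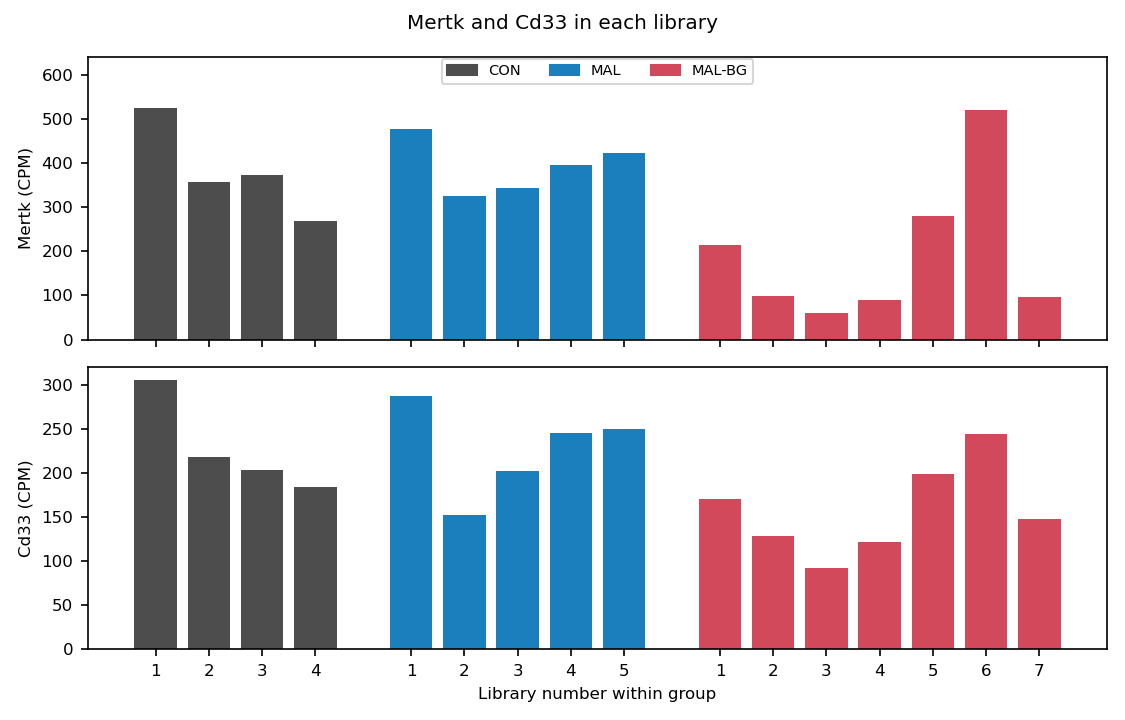
CPM of Mertk (upper) and Cd33 (lower) in all 16 libraries, numbered within CON, MAL, and MAL-BG, on linear axes that start at 0. MAL-BG replicates 2, 3, 4, and 7 are the 4 lowest for both genes, with Mertk at 60.5 to 99.5 CPM and Cd33 at 91.7 to 147 CPM.

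Because Mertk and Cd33 were lowest in the same libraries, the 250 bases before the start of each are shown, from RefSeq on GRCm38.p6 and written 5' to 3' on the strand of the gene. A match on the opposite strand would read as the reverse complement. Capitals mark 2 motifs searched on both strands, which did not overlap each other: CCGCCC, the core of the GC box bound by Sp1, and GAGGAA, the core of sites bound by PU.1, a regulator of the myeloid lineage. The Mertk stretch is chr2:128698665-128698914 and the Cd33 stretch is chr7:43533172-43533421.
Mertk: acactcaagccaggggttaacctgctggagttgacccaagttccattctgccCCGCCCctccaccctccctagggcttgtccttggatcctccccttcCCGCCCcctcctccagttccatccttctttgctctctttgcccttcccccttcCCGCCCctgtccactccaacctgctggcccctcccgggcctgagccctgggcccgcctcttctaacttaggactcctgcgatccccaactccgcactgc
Cd33: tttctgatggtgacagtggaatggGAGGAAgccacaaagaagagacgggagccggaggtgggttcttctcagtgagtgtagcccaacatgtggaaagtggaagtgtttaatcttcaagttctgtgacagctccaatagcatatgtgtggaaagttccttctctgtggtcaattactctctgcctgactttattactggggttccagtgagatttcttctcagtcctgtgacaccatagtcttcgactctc
The Mertk stretch holds 3 matches to CCGCCC and 0 to GAGGAA, and the Cd33 stretch holds 0 and 1. Among 27025 promoters of the same length, 32.9% hold CCGCCC and 23.1% hold GAGGAA. The start that RefSeq uses for Cd33 lies inside the gene as annotated, since other transcripts begin upstream. Of the 10 genes, 8 had a promoter in the sequences used, and Havcr2 and Mfge8 were the others with a GAGGAA match (1 each). CCGCCC also occurred before Gas6 (4), Mfge8 (4), Cd36 (2), and Cd47 (2 at each of its starts), so it was not particular to Mertk.

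Gas6, the bridging ligand of MERTK, was at 504, 601, 482, and 454 CPM in CON and at 349, 499.5, 518.5, 491.5, and 434.5 CPM in MAL. MAL-BG ranged from 317 to 549 CPM with a median of 478, and the groups overlapped. The log2 fold change was -0.16 ± 0.151 against CON (adjusted p = 0.415) and -0.00 ± 0.142 against MAL (adjusted p = 0.989). Within MAL-BG, replicate 6 had the least Gas6 and the most Mertk, and replicate 3 had the most Gas6 and the least Mertk. The log2 ratio of Mertk to Gas6 counts averaged -1.60 ± 1.38 in MAL-BG (SD, n = 7), -0.46 ± 0.386 in CON (n = 4), and -0.22 ± 0.444 in MAL (n = 5). The differences of -1.14 against CON (two-sided exact permutation p = 0.133, adjusted p = 0.2) and -1.37 against MAL (exact permutation p = 0.0619, adjusted p = 0.124) did not pass. Without MAL-BG replicate 6 they did, at -1.52 (exact permutation, adjusted p = 0.0357) and -1.76 (adjusted p = 0.0303). Gas6 lies on chromosome 8 from 13465374 to 13494535 (minus strand) and overlaps the antisense gene Tmem255b over 34 exon bases.

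Mfge8 codes for the milk fat globule protein that bridges phosphatidylserine to integrins, a product of astrocytes and vascular cells as well as macrophages. Its levels were 62.6, 153, 127, and 164 CPM in CON and 83.7, 161, 136, 54.5, and 112 CPM in MAL. MAL-BG spanned 74.0 to 210 CPM with a median of 130, and the groups overlapped. The log2 fold change was -0.02 ± 0.316 against CON (adjusted p = 0.963) and 0.19 ± 0.296 against MAL (adjusted p = 0.621). CON replicate 1 and MAL replicate 4, the highest of their groups in Sirpa, were the lowest in Mfge8. Of 9 astrocyte markers 5 were called lower against CON, with sums of 153.5 to 285.5 CPM in MAL-BG and 288 to 634 in CON, whereas of 10 mural cell markers 0 were called higher and 2 lower and of 9 endothelial markers 3 and 1. The mural and endothelial sums were lowest in CON replicate 1 (311 and 535 CPM) and MAL replicate 4 (446 and 466.5 CPM), the 2 libraries lowest in Mfge8 in their groups, and within MAL-BG highest in replicate 3 (1699 and 3550 CPM), which had the most Mfge8. The part of these cells in the Mfge8 value was not tested. Mfge8 lies on chromosome 7 from 79133768 to 79149060 (minus strand).

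The 2 scavenger receptors of the set, Cd36 and Msr1, were the genes called lower in MAL-BG than in MAL. Cd36, a receptor for oxidized lipids and fatty acids, held 34.4, 32.8, 29.1, 44.0, and 31.2 CPM in MAL and 27.3, 17.6, 34.3, and 31.8 CPM in CON. MAL-BG libraries lay closely together, from 17.7 to 23.7 CPM with a median of 20.2. All 7 were below all 5 MAL libraries, a separation that 16.8% of tested genes show in either direction, and they overlapped with CON through CON replicate 2. Cd36 fell by 0.74 ± 0.146 on the log2 scale against MAL (adjusted p = 8.46e-04), a call that was lost by size when libraries were scaled by their mean log2 CPM (-0.53, adjusted p = 0.0123). Against CON it passed by adjusted p alone (log2 fold change -0.44 ± 0.156, adjusted p = 0.0312), and without CON replicate 2 it was called (-0.61, adjusted p = 0.00284). Endothelial cells and monocytes also express Cd36. Of 9 endothelial markers 4 were called higher and 0 lower against MAL (sums 1017 to 3550 CPM in MAL-BG and 466.5 to 1377 in MAL), and of 9 monocyte markers 0 were called higher and 5 lower (380 to 1406 and 690 to 1264 CPM), and their part was not tested. Cd36 lies on chromosome 5 from 17781690 to 17888959 (minus strand).

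Msr1, the class A scavenger receptor, was low in all groups. It held 15.4, 11.9, 16.35, 26.9, and 12.2 CPM in MAL and 21.9, 7.05, 12.3, and 17.6 CPM in CON. MAL-BG ranged from 7.31 to 12.85 CPM with a median of 8.385. The MAL-BG libraries overlapped with MAL only between 11.9 and 12.85 CPM, and with CON through CON replicates 2 and 3, replicate 2 being the lowest of all. Msr1 fell by 0.85 ± 0.257 on the log2 scale against MAL (adjusted p = 0.0134), a call that was lost without MAL replicate 4 (-0.61, adjusted p = 0.0516) and when libraries were scaled by their mean log2 CPM, alone (-0.65, adjusted p = 0.0616) or with offsets for length and GC content (-0.56, adjusted p = 0.106). Against CON the log2 fold change of -0.68 ± 0.273 did not pass (adjusted p = 0.0512), and it did pass without CON replicate 2 (-0.92, adjusted p = 0.0106), MAL replicate 2 (-0.69, adjusted p = 0.0489), MAL replicate 4 (-0.69, adjusted p = 0.0301), or MAL-BG replicate 1 (-0.75, adjusted p = 0.0485). Border macrophages also express Msr1. Of their 8 markers 0 were called higher and 2 lower against MAL, with sums of 109 to 178 CPM in MAL-BG and 133.5 to 467 in MAL, and their part was not tested. Msr1 lies on chromosome 8 from 39543232 to 39642750 (minus strand).

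**Figure D4:**
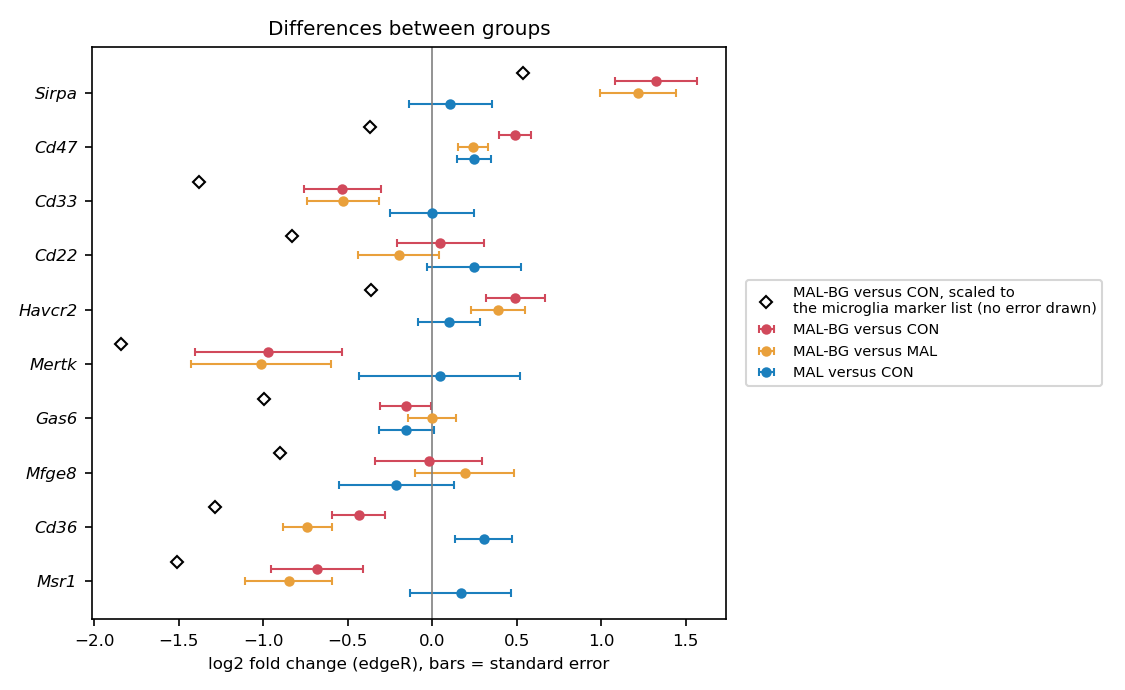
Log2 fold changes of the 10 genes with standard errors for the 3 comparisons, and open diamonds for MAL-BG versus CON after scaling to the microglia marker list. Sirpa stands at 1.33 and 1.22 in the MAL-BG comparisons. After that scaling it is at 0.535 while the other 9 genes lie below 0, as does the median of all tested genes (-0.89).

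None of the 10 genes passed the edgeR test between the 2 diets without bacteria. MAL versus CON had 0 genes called among the 10 and 0 among all 14565, with a smallest adjusted p of 0.999. By unadjusted p, 1 of the 10 was under 0.05 (Cd47, log2 fold change 0.25 ± 0.0998, adjusted p = 0.999) beside 212 of all genes (1.46%), and DESeq2 also called 0 genes. The other log2 fold changes lay between -0.21 (Mfge8) and 0.30 (Cd36, 27.8 ± 7.34 CPM in CON and 34.3 ± 5.77 in MAL). With 4 and 5 libraries, a change under the standard error of a gene, such as 0.477 for Mertk, was not detectable. Changes well above the standard error could be missed too, since Cd47 at 0.25 with a standard error of 0.0998 did not pass. The smallest change that would have passed was not tested. The number of genes with an unadjusted edgeR p under 0.05 depended on 1 library. It was 1087 without CON replicate 1 and 128 to 285 with any other library left out, and 0 genes were called in each fit.

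Because microglia markers rose in MAL-BG, each comparison was also fitted with libraries scaled to the mean log2 CPM of the 18 microglia markers, which gives levels relative to microglial RNA. Over all tested genes, the median against CON moved from -0.04 to -0.89 on the log2 scale, with 61 genes called higher and 9396 lower, so values are read against that shift. Sirpa was at 0.535 against CON (adjusted p = 0.0141) and 0.48 against MAL (adjusted p = 0.0182), above the microglia markers but under the fold threshold. Cd47 and Havcr2 turned negative, at -0.37 (adjusted p = 0.0604) and -0.36 (adjusted p = 0.0128) against CON, yet stayed above the all-gene median. Mertk (-1.84), Msr1 (-1.51), Cd33 (-1.38), Cd36 (-1.285), Gas6 (-0.996), and Cd22 (-0.83) were called lower. These 6 of 10 stand beside 64.9% of all tested genes called with this scaling, nearly all of them lower. Cd22 too was above the all-gene median. In the log2 CPM itself, Sirpa exceeded the microglia marker mean by 0.79 ± 0.422 in MAL-BG (SD, n = 7), 0.30 ± 0.163 in CON, and 0.37 ± 0.09 in MAL, and the groups overlapped. For Mertk the same difference was -3.94 ± 0.989 in MAL-BG, -1.79 ± 0.147 in CON, and -1.78 ± 0.233 in MAL, and no MAL-BG library (highest -2.31) reached the lowest of the others (-2.13). By this measure 5 of the 10 genes (Mertk, Cd33, Cd22, Cd36, and Msr1) had all MAL-BG libraries below the 9 others, beside 29% of all tested genes. The level of the markers enters these values directly, so they do not tell a change in Mertk from a change in the markers.

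Related genes were taken from 9 lists of 107 genes, of which 102 were tested. In MAL-BG versus CON 20 were called higher and 13 lower, beside 11.4% of all genes called higher and 21.7% lower. In MAL-BG versus MAL 15 were called higher and 16 lower, beside 10.2% and 20.2% of all genes. The totals of both directions (32.4% and 30.4%) were near those over all genes (33.1% and 30.4%). The split was not, as it leaned more to higher than over all genes. In MAL versus CON 0 were called. The largest share called higher against CON was among inhibitory receptors, at 6 of 14 with 1 lower (median log2 fold change 0.62). Values of related genes are against CON unless MAL is named. Each related gene named as called was also called in the same direction against MAL, except Inpp5d, Gulp1, and Adam17. Siglece, a Siglec of microglia, rose 2.53-fold (133 against 52.6 CPM, log2 fold change 1.34 ± 0.194, adjusted p = 8.89e-05), with no overlap with CON. The row 4632428N05Rik, an older name of Vsir, which codes for the checkpoint VISTA, rose 2.4-fold from 1365 to 3277 CPM (adjusted p = 9.12e-05). Relative to microglia markers Siglece was at 0.53 and 4632428N05Rik at 0.45, both under the fold threshold, and 0 of the 14 were called higher. Lilrb4a, another inhibitory receptor, fell by 1.58 ± 0.3 on the log2 scale (adjusted p = 6.29e-04), but it has a close paralog with which reads could be shared. Of the 4 tested relatives of Sirpa, 1 fell, Sirpb1a (2.53 against 5.33 CPM, log2 fold change -1.07, adjusted p = 0.0216), also with close paralogs. Its call was lost without CON replicate 3 (-0.90, adjusted p = 0.084), CON replicate 4 (-0.91, adjusted p = 0.079), or MAL-BG replicate 4 (-0.93, adjusted p = 0.0506). Against MAL, Sirpb1a was called lower at -1.59 (adjusted p = 0.00132), as was Sirpb1b (-1.20, adjusted p = 0.017).

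Among 11 checkpoint ligands and signalling genes, 1 rose and 1 fell. Inpp5d, the phosphatase SHIP1 that acts under inhibitory receptors, rose 1.54-fold (adjusted p = 0.00955), a call lost without CON replicate 2 (0.55, adjusted p = 0.0398) or CON replicate 4 (0.52, adjusted p = 0.0434) because the log2 fold change fell under the threshold, and it was at -0.20 relative to microglia markers. Against MAL, Inpp5d was under the fold threshold at 0.56 (adjusted p = 0.0113). Thbs1, a secreted ligand of CD47 and CD36, fell by 2.09 ± 0.402 on the log2 scale (35.7 against 152 CPM, adjusted p = 6.79e-04). Ptpn6 and Ptpn11, the phosphatases bound by SIRPα, were not called, at log2 fold changes of 0.13 (adjusted p = 0.585) and -0.49 (adjusted p = 0.00874).

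Phosphatidylserine recognition had 4 genes higher and 3 lower of 19 tested. Trem2, a lipid receptor of microglia, rose from 756 to 1845 CPM (log2 fold change 1.29 ± 0.223, adjusted p = 3.25e-04), and Itgb3, an integrin subunit that binds MFG-E8, rose from 65.8 to 158 CPM (1.27 ± 0.177, adjusted p = 7.02e-05). Tyro3, a relative of Mertk best known from neurons, fell from 17.3 to 4.34 CPM (-1.99 ± 0.402, adjusted p = 9.86e-04), and Adgrb1, a phosphatidylserine receptor of neurons and astrocytes, fell from 8.15 to 1.94 CPM (-2.07 ± 0.334, adjusted p = 1.94e-04). Of 8 neuron markers 7 were called lower against CON, with sums of 14.98 to 60.3 CPM in MAL-BG and 35.8 to 193 in CON, and their part was not tested. Of 8 genes for phosphatidylserine exposure 3 were higher and 2 lower: the scramblase gene Ano6 rose 2.08-fold (adjusted p = 0.00298) and Plscr3 rose 1.6-fold (adjusted p = 0.00742), while the flippase gene Atp11a fell (log2 fold change -1.39, adjusted p = 1.71e-04). Relative to microglia markers Trem2 (0.48) and Itgb3 (0.47) fell under the fold threshold, Ano6 was at 0.23 (adjusted p = 0.511), and Plscr3 was at -0.13.

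Scavenger receptors had 1 gene higher and 4 lower of 13 tested. Vldlr (5.62 against 35.7 CPM, log2 fold change -2.66 ± 0.455, adjusted p = 2.91e-04) and Scara5 (1.74 against 10.8 CPM, -2.62 ± 0.517, adjusted p = 8.19e-04) fell. All 10 choroid plexus markers (median -2.50) and 7 of 8 neuron markers (median -2.59) were called lower as well, whereas 0 of 6 fibroblast markers were. The part of such cells in the falls of Vldlr and Scara5 was not tested. Cd68, a lysosomal protein of macrophages, was called higher at 0.61 (adjusted p = 0.0463), a call lost when any of 12 of the 16 libraries was left out (all but MAL-BG replicates 2, 3, 4, and 7), with values from 0.53 to 0.68 and adjusted p from 0.0527 to 0.137 in those fits. Engulfment machinery had 2 genes higher and 1 lower of 19: Rhog, a small GTPase upstream of Rac, rose 1.69-fold (adjusted p = 7.68e-04) and Vav1, an exchange factor for Rac, rose 1.77-fold (adjusted p = 0.00408), and they were at -0.08 and 0.02 relative to microglia markers. Gulp1, an engulfment adaptor, fell (-1.22 ± 0.445, adjusted p = 0.0346), a call lost without any of CON replicates 2, 3, and 4 or MAL-BG replicates 1, 2, 4, and 7 (-1.06 to -1.16, adjusted p 0.0602 to 0.0915). Against MAL, Gulp1 was at -0.94 and did not pass (adjusted p = 0.0803). Among 5 genes of sheddases and their regulators, Adam10 (1.66-fold, adjusted p = 1.11e-04) and Adam17 (1.56-fold, adjusted p = 7.73e-04) rose and 0 fell. ADAM17 cleaves MERTK from the cell surface. Adam17 fell under the fold threshold without CON replicate 2 (0.566) or CON replicate 4 (0.576), and relative to microglia markers Adam10 and Adam17 were at -0.12 and -0.19. Against MAL, Adam17 was under the fold threshold at 0.48 (adjusted p = 0.00352). Of 9 transcription regulators, Maf alone was called, with a 1.74-fold rise (adjusted p = 0.00209), and it was at -0.03 relative to microglia markers.

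**Figure D5:**
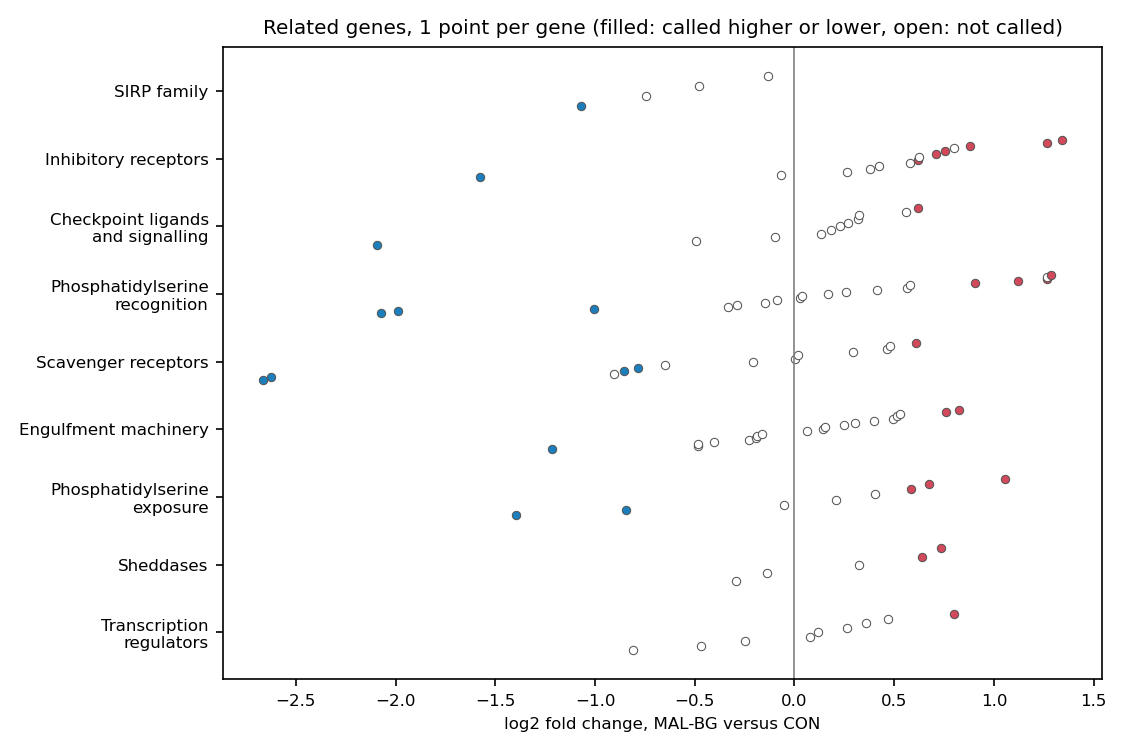
Log2 fold change in MAL-BG versus CON of 102 tested genes in 9 lists related to the 10 genes, 1 point per gene, filled where called. Points on the right are higher in MAL-BG, and the largest falls are Vldlr (-2.66) and Scara5 (-2.62) among scavenger receptors.

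The genes whose profile over the 16 libraries was most like each of the 10 were found by the root mean square (RMS) difference of mean-centered log2 CPM. For Sirpa, which itself varied by 0.715 (RMS about its mean), they were Tspan14 (0.07), Scamp2 (0.098), Laptm5 (0.103), Syngr2 (0.109), and Pvrl4 (0.115). Cd33 was most like Herc2 (0.135, with its own RMS at 0.461), Havcr2 like Cttnbp2nl (0.083 and 0.332), and Mertk like Fgd3 (0.203 and 0.972). With the gene's own RMS given second, the nearest for Cd47 was Ubap1 (0.119 and 0.225), for Cd22 Ptpn6 (0.232 and 0.403), and for Gas6 Serhl (0.121 and 0.233). For Mfge8 it was Hey2 (0.144 and 0.531), for Cd36 Pla2g7 (0.178 and 0.388), and for Msr1 Gpr65 (0.242 and 0.556). These are descriptions over libraries that share 3 groups, and a difference between groups enters every one of them.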

How the data were processed

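RNA-Seq libraries of CD11b+ brain cells were analyzed (CON 4, MAL 5, MAL-BG 7). The authors prepared stranded poly(A) libraries, sequenced paired reads of 42 bases, aligned them to GRCm38.p6 with STAR, and deposited counts per gene made with HTSeq, without normalization (the sources disagree on the HTSeq version). The counting mode, strand option, and annotation were not given in the sources used here. Counts on overlapping or duplicated sequence can therefore be misassigned, and 42-base windows shared between genes were counted in GENCODE M21 transcripts. Of 24421 rows, 27 have date-like names and 2 names occur on more than 1 row. No member gene was affected. Columns carry a group and a running number that matches no sample title, so groups came from column names and replicate numbers only name libraries.

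Counts were analyzed in R 4.3.3 with edgeR 4.0.16. A gene entered the test if 4 or more libraries each held over 10 counts, sizes were scaled by TMM, and the 3 groups were fitted together by the quasi-likelihood test with Benjamini-Hochberg adjustment over all tested genes. The filter and the thresholds (adjusted p under 0.05, absolute log2 fold change above 0.58) follow the study's code. That code has a batch term, which was not fitted because no library could be assigned to a batch. Ratios within libraries used a prior count of 0.5 and an exact two-sided permutation test on group means, adjusted over 6 comparisons. A prior count of 2 was added for log2 CPM. Replicates of a group differed by at least 10 times the counting noise (chi-square per degree of freedom), so the spread between mice sets the precision. Steps were tested on simulated data. Coordinates and promoters are from RefSeq on GRCm38.p6.

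The member genes and all gene lists were chosen with earlier results of these data known. Named genes were all 10 members, the 2 largest rises and 2 largest falls among called genes of each related list in MAL-BG versus CON, and the nearest profile of each member (5 for Sirpa). Ptpn6 and Ptpn11 were added after their values were seen. Lists missing genes in the table were tested with those present. Alternatives were other scalings (DESeq2 size factors, upper quartile, totals only, mean log2 CPM, microglia markers), offsets for length and GC content (known for 99.2% of tested genes), other low-count filters, DESeq2 1.42.0, fits without the third group, thinning of every library to the smallest total, no fold change threshold, and each library left out in turn. Some genes of the lists are not reported here.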

Additional observations from a re-analysis of the deposited data

Results flagged for a closer look

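Of 36 sets of values tested for a library far from the others of its group, 1 stood apart, and about 1 in 20 such sets does so by chance. The log2 ratio of Sirpa to Cd47 in CON replicate 1 was 5.58, whereas the next highest CON library was at 4.66, a gap that covers 0.867 of the range of the group, above the limit set for 4 libraries. The same library had the highest Sirpa (2403 CPM), Cd33 (305 CPM), and Mertk (524 CPM) and the lowest Mfge8 (62.6 CPM) and Cd47 (50.1 CPM) of its group. Its summed microglia markers were also the highest of CON, at 43390 CPM, and their part in the ratio was not tested. Without it, the ratio was 1.09 higher in MAL-BG than in CON (two-sided exact permutation test, adjusted p = 0.025).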

How the results depend on the processing

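Counts of called genes among the 10 depended on the setting. Against CON, 1 gene was called, and 2 were called with upper quartile scaling, length and GC offsets (alone or with scaling by the mean log2 CPM), DESeq2, or thinned libraries, 3 with library totals only or scaling by the mean log2 CPM, 4 by adjusted p alone, and 6 with scaling to microglia markers. Against MAL, 3 were called, 2 with scaling by the mean log2 CPM (alone or with offsets), where Msr1 was lost in both and Cd36 in the first, 4 with upper quartile scaling, the offsets alone, DESeq2, or adjusted p alone, 5 with library totals only, and 6 with scaling to microglia markers. Scaling to microglia markers called 64.9% of all tested genes against CON and 61.3% against MAL. Mertk was called against MAL in 5 of 13 settings. Leaving out 1 library gave 1 to 3 against CON, 2 to 5 against MAL, and 0 in MAL versus CON. Sirpa kept its direction in all 29 alternatives of both MAL-BG comparisons and was called in all but scaling to microglia markers. Related lists had 33 genes called against CON (25 to 36 with 1 library left out), 51 with scaling to microglia markers, and 50 by adjusted p alone. Against MAL they had 31 (27 to 37), 48 with scaling by the mean log2 CPM, 52 with scaling to microglia markers, and 50 by adjusted p alone. Over all genes, the median against CON moved from -0.04 to 0.21 (mean log2 CPM) or -0.17 (totals only), and the cause of the changes in calls was not tested.

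Scaling to microglia markers turned the log2 fold change of Cd22 (-0.833), Havcr2 (-0.36), Cd47 (-0.368), Inpp5d (-0.201), Cd68 (-0.274), Rhog (-0.084), Plscr3 (-0.13), Adam10 (-0.125), Adam17 (-0.194), and Maf (-0.026) against CON, and of Havcr2 (-0.401), Cd47 (-0.538), and Mfge8 (-0.622) against MAL. The other turns were in values near 0 that were not called. Against CON they were Cd22 with totals only (-0.086), Gas6 with the mean log2 CPM (0.084), and Mfge8 with DESeq2 size factors or DESeq2 (0.001 in both), the mean log2 CPM (0.235), and the offsets alone (0.018) or with the mean log2 CPM (0.271). Against MAL they were Cd22 with the mean log2 CPM (0.013) and its offsets (0.006), and Gas6 with DESeq2 size factors or DESeq2 (0.026 in both), the mean log2 CPM (0.214), its offsets (0.069), and no low-count filter (0.013). In MAL versus CON, Cd33 turned with upper quartile (0.007), totals only (0.014), mean log2 CPM (0.017), compared groups only (0.013), and thinned libraries (0.003).

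With 1 library left out, the values that turned ranged as follows: Cd22 -0.066 to 0.153, Mfge8 -0.268 to 0.115 against CON, Gas6 -0.099 to 0.068 against MAL, and in MAL versus CON Sirpa -0.044 to 0.347, Cd33 -0.104 to 0.163, Mertk -0.091 to 0.229, and Msr1 -0.08 to 0.412. The ratio of Sirpa to Cd47 differed by 0.74 to 1.093 against CON, 0.877 to 1.084 against MAL, and -0.238 to 0.128 in MAL versus CON, and with medians by 1.048 and 1.005 (no longer past the threshold) and 0.043. The ratio of Mertk to Gas6 differed by -1.524 to -0.876 against CON and -1.756 to -1.107 against MAL.

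No paired analysis was possible because the numbers of the columns match no sample title, and no library carries a replicate number of the labels. Leaving out each library gave the ranges of 0.74 to 1.093 and 0.877 to 1.084 above. Depth limits Cd22 and Msr1 most, which had the fewest counts of the 10 genes (as few as 84 and 76 in a library).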
